A study of Mus musculus with 6 samples.

Results

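The 7 genes of prostaglandin and leukotriene synthesis described here are Ptgs2, Ptges, Ptgs1, Alox5, Alox5ap, Lta4h and Ltc4s. They were chosen by name, with earlier results of these data known. All 7 were among the 12384 genes for which the deposited table gives transcript values. The table holds RNA of exosomes, vesicles shed by cells, from mouse dendritic cells grown out of bone marrow, and the study compared the long RNAs of exosomes from mature and immature cells. In both groups, marrow cells of C57BL/6 mice were cultured to day 7 in the growth factors GM-CSF (20 ng/ml) and IL-4 (10 ng/ml). Cells then received lipopolysaccharide (LPS), a cell wall component of bacteria, at 5 µg/ml, or PBS, for 24 h. The mature group (3 libraries) is taken here as the LPS arm and the immature group (3 libraries) as the PBS arm, from their titles, although a treatment label reads untreated in all 6 samples. All cells were washed, and exosomes were collected from fresh medium after a further 48 h by differential ultracentrifugation. The age and sex of the mice are not in the labels, nor do they say that replicate libraries were separate cultures, so p-values measure the spread between these libraries, which may be technical.

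Cyclooxygenases turn arachidonic acid, cut from membrane lipids by phospholipases, into prostaglandin H2, from which dedicated synthases make prostaglandin E2, prostacyclin, thromboxane and other prostanoids. Ptgs1 encodes cyclooxygenase-1, present in many cells at rest, and Ptgs2 encodes cyclooxygenase-2, which myeloid cells make after contact with LPS. Ptges encodes the microsomal prostaglandin E synthase that is also known to be inducible. In the other branch, Alox5 encodes 5-lipoxygenase and Alox5ap encodes FLAP, the membrane protein that presents arachidonic acid to it. Their product leukotriene A4 is turned into leukotriene B4 by the hydrolase encoded by Lta4h, or joined to glutathione by the synthase encoded by Ltc4s to give leukotriene C4.

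The values are FPKM, fragments scaled by transcript length and by the mapped fragments of the library, summed here over the listed transcripts of a gene. Exosome preparations can hold RNA from any cell type of the culture. A different number of vesicles from a cell type cannot be told apart from a different amount of RNA per vesicle. Transcripts at 0.5 FPKM or more numbered 12924, 18775 and 17604 in mature libraries 1, 2 and 3, against 15432, 10912 and 16728 in immature libraries 1, 2 and 3. Mature library 1 and immature library 2 thus had the fewest transcripts of their groups. Among the dendritic cell markers, Cd74 was at 601 to 1461 FPKM in mature libraries and 265 to 615 FPKM in immature libraries. Itgax, which encodes CD11c, was at 21.1 to 32.2 FPKM in mature and 7.36 to 54.9 FPKM in immature libraries, whereas Flt3 was at most 0.906 FPKM in any library.

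Promoters from RefSeq (GRCm38.p6) were examined for 6 of the 7 genes, all but Alox5ap, each over 250 bases before and 50 bases after 1 start listed for the gene. The windows before the start are shown for Ptgs2 and Ptges, the genes that passed the test below, and for Ptgs1, the cyclooxygenase that did not. All are written 5′ to 3′ on the strand of the gene, and capitals mark matches to the motifs searched. The Ptgs2 window lies at chr1:150099781-150100030 (plus strand), the Ptges window at chr2:30903298-30903547 (minus strand) and the Ptgs1 window at chr2:36230176-36230425 (plus strand).
Ptgs2: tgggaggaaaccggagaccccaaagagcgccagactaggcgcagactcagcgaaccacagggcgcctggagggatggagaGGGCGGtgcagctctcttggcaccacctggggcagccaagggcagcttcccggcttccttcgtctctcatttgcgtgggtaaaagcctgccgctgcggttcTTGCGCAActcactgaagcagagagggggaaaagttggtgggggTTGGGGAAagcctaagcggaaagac
Ptges: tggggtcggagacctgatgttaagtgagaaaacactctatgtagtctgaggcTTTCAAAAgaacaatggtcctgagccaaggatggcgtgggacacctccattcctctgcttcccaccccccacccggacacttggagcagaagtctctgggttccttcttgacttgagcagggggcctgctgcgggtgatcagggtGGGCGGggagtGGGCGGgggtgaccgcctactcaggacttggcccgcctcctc
Ptgs1: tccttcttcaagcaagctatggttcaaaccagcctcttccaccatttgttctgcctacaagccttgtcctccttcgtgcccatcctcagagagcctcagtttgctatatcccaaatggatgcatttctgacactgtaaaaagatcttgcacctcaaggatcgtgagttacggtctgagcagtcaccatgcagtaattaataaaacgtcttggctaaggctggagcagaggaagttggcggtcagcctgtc

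Motifs were searched on both strands as plain letter patterns, except TATAAA, searched on the gene strand alone. In the Ptgs2 window, matches to a C/EBP pattern (TTNNGNAA) began at positions -69 and -25 from the start, and a match to an Sp1 pattern (GGGCGG) began at position -170. After the start of Ptgs2, positions 14 to 22 of the gene strand read CGTCACGTG, in which a cAMP response element core (TGACG, on the opposite strand) overlaps an E-box (CACGTG). The Ptges window held 2 matches to the Sp1 pattern, beginning at positions -53 and -42, and 1 to the C/EBP pattern, on the opposite strand, beginning at position -198. No motif of the search matched in the Ptgs1 or Lta4h windows. Of all 32544 promoter windows of the same length, 40.7% held the C/EBP pattern, 35.9% the Sp1 pattern, 20.9% the cAMP response element core and 7.17% the E-box. The Alox5 window held 1 Sp1 match, beginning at position -35. The Ltc4s window held 1 match to an NF-kB pattern (GGNNTTTCC), on the opposite strand, beginning at position -139, a pattern found in 5.83% of windows. Patterns for AP-1 (TGANTCA, in 7.79% of windows), Egr1 (GCGNGGGCG, 5.60%), an interferon-stimulated element (GAAANNGAA, 8.53%) and the TATA box (TATAAA, 8.28%) matched in none of the 6 windows. Positions count from the start used for each window, which for Ptgs2, Alox5, Lta4h and Ltc4s is the outer end of the RefSeq gene. For Ptges it lies inside the RefSeq gene (chr2:30889471-30931020, minus strand). For Ptgs1 it also lies inside the RefSeq gene (chr2:36216742-36258593, plus strand). The outer starts of Ptges and Ptgs1 were not searched. Where transcription began was not measured, so whether the match after the Ptgs2 start is transcribed is not known. These matches describe letters in a window, and no binding was measured.

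The mature libraries carried far more Ptgs2 and Ptges RNA than the immature libraries, and these were the members of the 7 that passed the test. All 7 were tested, with limma on log2(FPKM + 1) over the 10277 genes that reached 0.5 FPKM in at least 3 libraries, and 2 of 7 were higher at a Benjamini-Hochberg adjusted p under 0.05. Over all genes tested, 0.185% were higher at that threshold. None was lower (0.0%), while 23 genes (0.224%) were lower at an unadjusted p under 0.05. The fold changes of all 7 members were above 0 on FPKM as deposited, as were those of 76.4% of all genes tested, whose median was 0.38. Alox5, Alox5ap and Lta4h fell below 0 under some scalings of the libraries that brought the median of all genes to between -0.04 and 0.02.

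**Figure D1:**
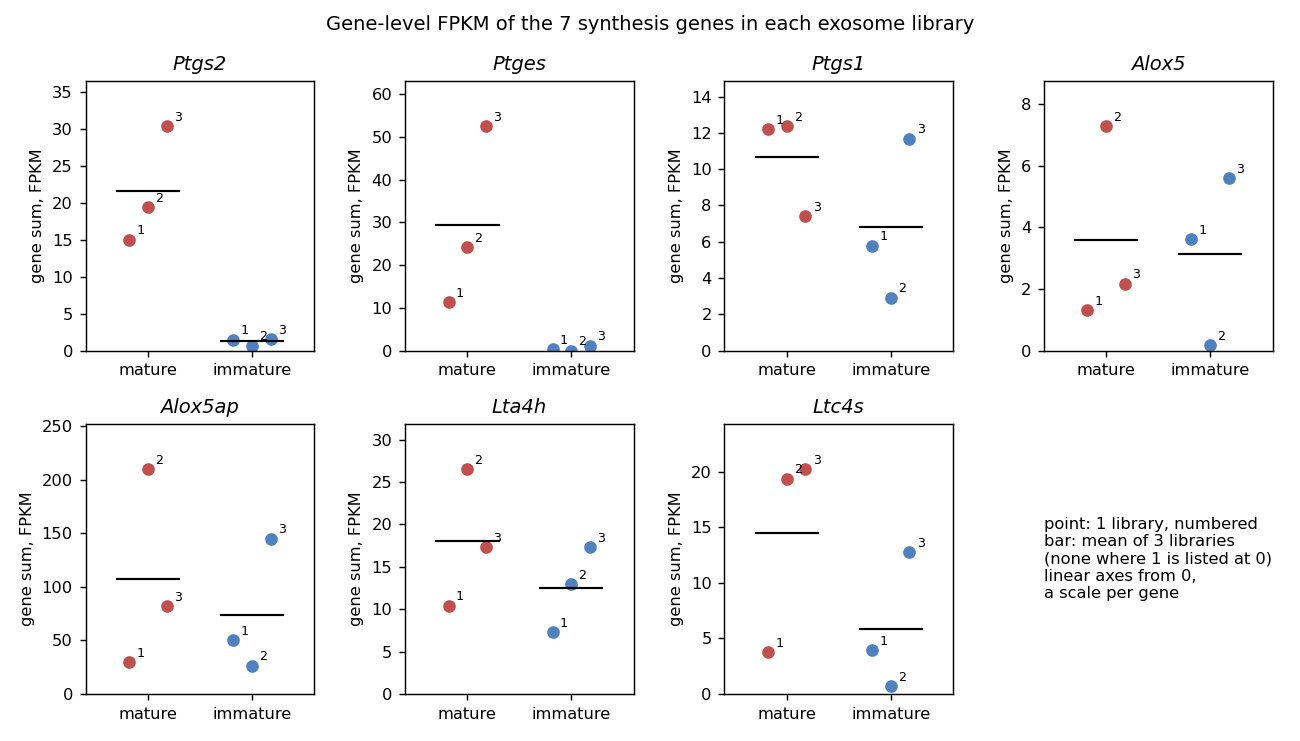
Summed FPKM (linear axes from 0, a scale for each gene) of the 7 synthesis genes, with the mature libraries on the left and the immature libraries on the right of each panel; points are libraries and bars are means of 3 libraries. Every mature point lies above every immature point for Ptgs2 and Ptges, and the groups overlap for the other 5 genes.

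Ptgs2 (chr1:150100031-150108227, plus strand, GRCm38) had 15.0, 19.4 and 30.5 FPKM in mature libraries 1, 2 and 3, against 1.50, 0.691 and 1.56 FPKM in immature libraries 1, 2 and 3. The groups did not overlap, and the lowest mature library stood 9.67 times above the highest immature library. All mature values were above all immature values for 16.7% of the genes tested. Ptgs2 averaged 21.6 ± 7.94 FPKM in mature and 1.25 ± 0.485 FPKM in immature libraries (SD, n = 3 each), a ratio of 17.3. Its log2 fold change was 3.30 (SE 0.49, 95% interval 2.22 to 4.37; limma adjusted p = 0.0295), which is 2.91 above the median of all genes. A larger log2 fold change was found for 24 of the 10277 genes.

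Ptges (chr2:30889471-30929863, minus strand) had 11.3, 24.3 and 52.6 FPKM in mature libraries 1, 2 and 3, against 0.400, 0 and 1.14 FPKM in immature libraries 1, 2 and 3. Again no immature library reached the mature range, and the lowest mature library was 9.96 times above the highest immature one. Mature library 3 was the highest and mature library 1 the lowest of the mature group for Ptgs2 and Ptges alike. The log2 fold change of Ptges was 4.15 (SE 0.61, 95% interval 2.80 to 5.50; limma adjusted p = 0.0295), or 3.76 above the median of all genes, and 10 genes had a larger one. Since 1 immature library is listed at 0, this fold change depends on the pseudocount of 1.

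Leaving out mature library 2, mature library 3 or immature library 1 ended the call for each gene. Without them, in that order, the log2 fold change of Ptgs2 was 3.34, 3.03 and 3.39 (limma adjusted p = 0.0961, 0.401 and 0.147), and that of Ptges was 4.16, 3.61 and 4.13 (adjusted p = 0.0869, 0.277 and 0.139). Without mature library 1 and immature library 2 together, Ptgs2 was at 3.32 (adjusted p = 0.0186) and Ptges at 4.41 (adjusted p = 0.0168). Each gene passed the test in 12 of 19 alternative settings. The call was also lost with a pseudocount of 0.1, with the libraries rescaled to the same total and on the most abundant transcript alone, at adjusted p between 0.0534 and 0.115. A fit with a replicate block ended it too (limma adjusted p = 0.127 for Ptgs2 and 0.0560 for Ptges). Over all 19 settings, the log2 fold change of Ptgs2 lay between 2.83 and 4.02 and its adjusted p between 0.0186 and 0.401. For Ptges the fold change lay between 3.61 and 5.95 and the adjusted p between 0.0109 and 0.277.

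Ptgs1 (chr2:36230426-36252272, plus strand) did not pass the test. It had 12.2, 12.4 and 7.40 FPKM in mature libraries 1, 2 and 3, against 5.79, 2.92 and 11.7 FPKM in immature libraries 1, 2 and 3. The groups overlapped, with immature library 3 above mature library 3. Its means were 10.7 ± 2.83 FPKM in mature and 6.80 ± 4.47 FPKM in immature libraries (SD, n = 3 each), and its log2 fold change was 0.71 (SE 0.55, 95% interval -0.50 to 1.92; limma adjusted p = 0.702).

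The balance of the 2 cyclooxygenase RNAs differed between the groups without overlap. Ptgs2 made up 55.2%, 61.1% and 80.5% of the summed Ptgs1 and Ptgs2 FPKM in mature libraries 1, 2 and 3, against 20.6%, 19.1% and 11.7% in immature libraries 1, 2 and 3. Ptgs2 was thus the more abundant of the pair in every mature library and Ptgs1 in every immature library. The mean share was 65.6% ± 13.2 in mature and 17.2% ± 4.76 in immature libraries (SD, n = 3 each). The log2 ratio of Ptgs2 to Ptgs1 was higher by 2.59 in mature libraries (2-sided exact permutation p = 0.1, the smallest that 3 against 3 allows, and 0.1 after adjustment over the 3 ratios tested).

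Among the prostaglandin E synthases, Ptges made up 49.7%, 42.0% and 69.5% of the summed FPKM of Ptges, Ptges2 and Ptges3 in mature libraries 1, 2 and 3. In immature libraries 1, 2 and 3 the share was 1.59%, 0% and 4.43%. Nearly all of the rest was Ptges3, the cytosolic synthase and Hsp90 co-chaperone p23, at 11.3, 32.3 and 21.2 FPKM in mature libraries, against 23.8, 21.1 and 23.9 FPKM in immature libraries. Ptges3 overlapped between the groups (log2 fold change -0.19, SE 0.50, limma adjusted p = 0.940). The log2 ratio of Ptges to Ptges3 was higher by 4.34 in mature libraries, with no overlap (2-sided exact permutation p = 0.1, the smallest possible).

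At the level of single transcripts, 20 were listed for the 7 genes, 12 of them protein coding, and 15 were tested. None of the 15 passed the test over all 15972 transcripts, of which 0.0626% were higher in mature libraries at a limma adjusted p under 0.05. At an unadjusted p under 0.05, 5 of the 15 were higher, against 7.39% of all transcripts tested. The mature values lay above the immature values without overlap for 4 of the 15 (both Ptgs2 transcripts, Ptges-202 and Ptges-203), against 13.1% of all transcripts tested. Reads shared by the transcripts of a gene were divided between them by an estimate, so the gene sums rest on fewer assumptions than the transcript values.

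Ptgs2-201, the full-length coding transcript, had 10.9, 16.6 and 26.1 FPKM in mature libraries 1, 2 and 3, against 0.847, 0.691 and 0.641 FPKM in immature libraries. It made up 82.6% of the mean Ptgs2 FPKM in mature and 58.1% in immature libraries, and its log2 fold change was 3.37 (SE 0.53, limma adjusted p = 0.0826). The other listed Ptgs2 transcript, annotated as coding and spanning 995 bases inside the gene, had 4.19, 2.80 and 4.32 FPKM in mature libraries, against 0.658, 0 and 0.915 FPKM in immature libraries. For both transcripts the lowest mature library was above the highest immature one.

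Ptges-202, the coding transcript of Ptges and the one that begins at the promoter shown above, had 9.73, 19.1 and 33.2 FPKM in mature libraries 1, 2 and 3. In immature libraries 1, 2 and 3 it had 0.400, 0 and 0.899 FPKM, and its log2 fold change was 3.81 (SE 0.60, limma adjusted p = 0.0826). Ptges-203, a transcript annotated as processed and not coding, had 0.594, 2.73 and 1.80 FPKM in mature libraries and was listed at 0 in all 3 immature libraries. Ptges-204, annotated as processed and spanning 37568 bases, had 0.407, 0.397 and 17.6 FPKM in mature libraries, against 0, 0 and 0.238 FPKM in immature libraries. That transcript alone gave 33.4% of the Ptges sum in mature library 3. Ptges-201, also processed, had 0.587, 2.07 and 0 FPKM in mature libraries and was listed at 0 in the immature ones. Without Ptges-204, Ptges was at 10.9, 23.9 and 35.0 FPKM in mature libraries, against 0.400, 0 and 0.899 FPKM in immature libraries, still with no overlap. RefSeq places the lncRNA Gm52550 and the pseudogene Gm13400 within the span of Ptges. Whether the counting used strand is not stated, so reads of Gm52550 and Ptges may not have been separated.

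**Figure D2:**
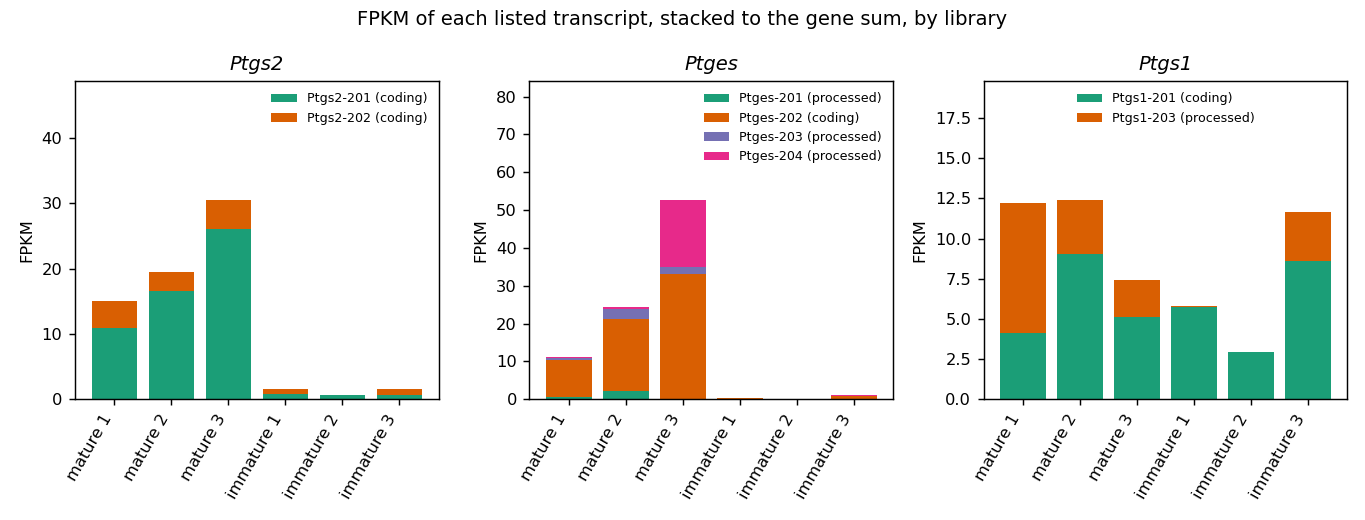
FPKM of each listed transcript of Ptgs2, Ptges and Ptgs1, stacked to the gene sum, in the 3 mature and then the 3 immature libraries (linear axes from 0). Ptgs2-201 and Ptges-202 give most of each mature column, Ptges-204 is large in mature library 3, and Ptgs1-203 is largest in mature library 1.

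The coding transcript Ptgs1-201 had 4.16, 9.06 and 5.10 FPKM in mature libraries 1, 2 and 3, against 5.75, 2.92 and 8.62 FPKM in immature libraries 1, 2 and 3. Its mature values all lay within the immature range except that of mature library 2, and its log2 fold change was 0.11 (limma adjusted p = 0.986). The processed transcript Ptgs1-203 had 8.05, 3.32 and 2.29 FPKM in mature libraries, against 0.0434, 0 and 3.07 FPKM in immature libraries, with overlap. It made up 66.0% of Ptgs1 in mature library 1. Of the full-length coding transcripts, Ptgs2-201 was 72.3%, 64.7% and 83.7% of the summed Ptgs1-201 and Ptgs2-201 FPKM in mature libraries, against 12.8%, 19.1% and 6.92% in immature libraries.

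The leukotriene genes were present in exosomes of both groups, and none of the 4 passed the test. Alox5ap (chr5:149264767-149288153, plus strand) had 29.8, 209.7 and 81.7 FPKM in mature libraries 1, 2 and 3, against 50.2, 26.5 and 144.8 FPKM in immature libraries 1, 2 and 3. Mature library 1 lay below 2 of the 3 immature libraries, and mature library 2 above all of them. The log2 fold change was 0.46 (SE 0.81, 95% interval -1.32 to 2.25; limma adjusted p = 0.900), and Alox5ap-201 gave 96.8% of the mean FPKM in mature and 96.3% in immature libraries. Alox5ap-202 had 0, 2.15 and 2.23 FPKM in mature libraries, against 0.990, 1.35 and 1.19 FPKM in immature libraries. Alox5ap-203 had 0, 4.90 and 0.860 FPKM in mature libraries, against 0.650, 0.733 and 3.28 FPKM in immature libraries.

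Alox5 (chr6:116410077-116461178, minus strand), with the single listed transcript Alox5-201, had 1.32, 7.29 and 2.18 FPKM in mature libraries, against 3.62, 0.175 and 5.60 FPKM in immature libraries. The highest value was in mature library 2 and the lowest in immature library 2. Its means were 3.60 ± 3.23 FPKM in mature and 3.13 ± 2.74 FPKM in immature libraries (SD, n = 3 each), and its log2 fold change was 0.26 (SE 0.72, 95% interval -1.34 to 1.85; limma adjusted p = 0.943). RefSeq places the lncRNA Gm38880 within the span of Alox5. The log2 ratio of Ptgs2 to Alox5 was higher by 3.04 in mature libraries, without overlap (2-sided exact permutation p = 0.1, the smallest possible).

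Lta4h (chr10:93453411-93484875, plus strand) had 10.4, 26.5 and 17.3 FPKM in mature libraries, against 7.27, 12.9 and 17.3 FPKM in immature libraries, and the groups overlapped. The log2 fold change of Lta4h was 0.48 (SE 0.53, 95% interval -0.68 to 1.65; limma adjusted p = 0.807). Lta4h-201 gave 93.4% of its mean FPKM in mature and 81.5% in immature libraries. The processed transcript Lta4h-204 was highest in immature library 2, at 4.24 FPKM, and Lta4h-207, also processed, had 0, 0.777 and 0 FPKM in mature libraries, against 0.605, 0 and 1.19 FPKM in immature libraries.

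Ltc4s (chr11:50236461-50238616, minus strand) had 3.76, 19.4 and 20.2 FPKM in mature libraries 1, 2 and 3, against 3.95, 0.708 and 12.7 FPKM in immature libraries 1, 2 and 3. Mature libraries 2 and 3 stood above all immature libraries and mature library 1 did not. Its means were 14.4 ± 9.26 FPKM in mature and 5.80 ± 6.22 FPKM in immature libraries (SD, n = 3 each). The log2 fold change, 1.38 (SE 0.82, 95% interval -0.43 to 3.19; limma adjusted p = 0.609), was the third largest of the 7, and its interval held 0. Its most abundant transcript, which is coding, made up 79.9% of the mean FPKM in mature and 76.5% in immature libraries. Ltc4s-201 had 0, 2.24 and 2.73 FPKM in mature libraries, against 0, 0 and 1.75 FPKM in immature libraries, and the processed Ltc4s-205 had 0.145, 0.153 and 1.51 FPKM in mature libraries, against 0.0453, 0 and 1.32 FPKM in immature libraries. Of its 5 listed transcripts, Ltc4s-203 and Ltc4s-204 averaged under 0.5 FPKM in each group, at most 0.962 FPKM in a library.

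Library differences within a group were large for the leukotriene genes. Mature library 2 was among the top 2 of the 6 libraries for all 4 genes, and mature library 1 among the lowest 2 for all 4. Immature library 2 was among the lowest 2 for 3 of the 4, and immature library 3 among the top 2 for 2 of the 4. For Alox5 and Alox5ap the top 2 libraries were mature 2 and immature 3. The same libraries had the highest summed levels of neutrophil markers (11 of 11 in the table), at 256, 1363 and 457 FPKM in mature libraries 1, 2 and 3, against 205, 236 and 1266 FPKM in immature libraries 1, 2 and 3. The defining neutrophil marker Ly6g did not follow that order within the mature group, at 1.94, 1.82 and 0.911 FPKM in mature libraries 1, 2 and 3, against 0, 0 and 3.18 FPKM in immature libraries 1, 2 and 3. They also had the highest summed erythroid markers (6 of 6), at 32.9, 266 and 19.3 FPKM in mature libraries, against 13.6, 19.4 and 454 FPKM in immature libraries, with Alas2 listed at 0 in the other 4 libraries. The part of these cell types in the leukotriene gene values was not tested.

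**Figure D3:**
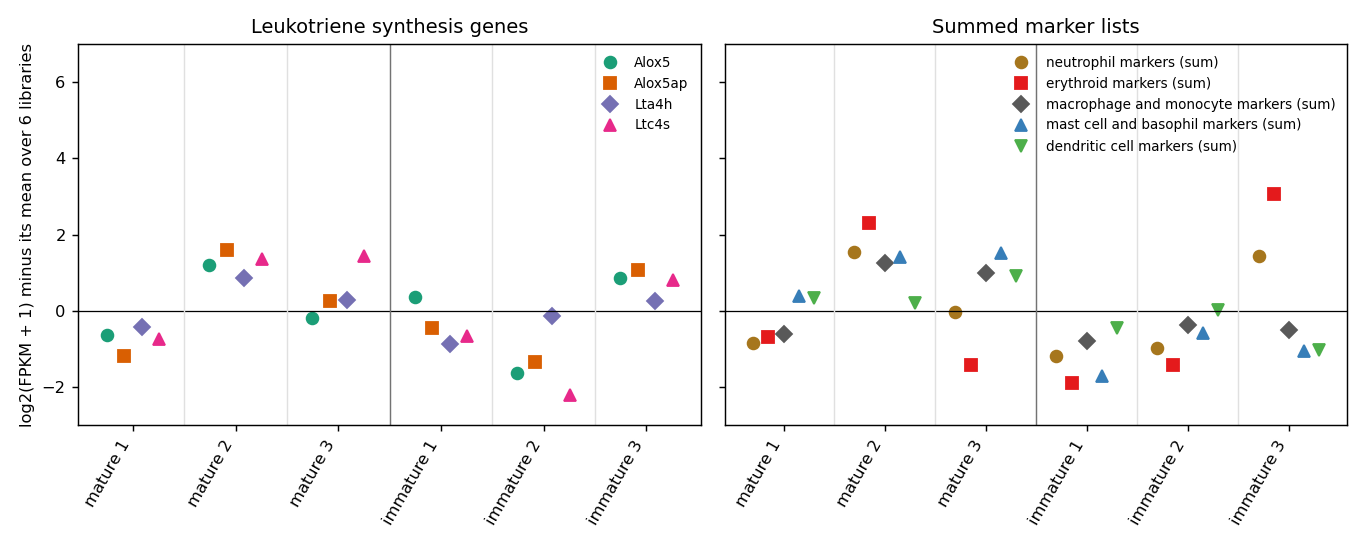
For each library, log2(FPKM + 1) minus its mean over the 6 libraries, of the 4 leukotriene synthesis genes (left) and of summed marker lists (right), with mature libraries left of immature ones. Alox5, Alox5ap and the neutrophil and erythroid sums are highest in mature library 2 and immature library 3.

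Marker lists also differed beside Ptgs2 and Ptges. The summed dendritic cell markers (12 of 14 in the table, Dpp4 and Clec9a without a value) were at 2228, 2038 and 3367 FPKM in mature libraries, against 1296, 1806 and 874 FPKM in immature libraries. Cd74, H2-Aa, H2-Ab1 and H2-Eb1 gave most of that sum in every library. Of the 10 dendritic cell markers tested, 4 lay above without overlap, against 16.7% of all genes. Itgax, Zbtb46, Irf4 and Ciita were among those that overlapped. The mast cell and basophil markers (8 of 15) summed to 31.0, 64.4 and 68.4 FPKM in mature libraries, against 6.47, 15.4 and 10.8 FPKM in immature libraries. Neither sum overlapped between the groups, and all 5 mast cell and basophil markers tested were higher at an unadjusted p under 0.05, against 9.52% of all genes, with 0 past the limma adjusted threshold. The tryptases and chymases Mcpt1, Mcpt2, Mcpt4, Tpsb2, Tpsab1 and Cma1 had no value in the table, and Fcer1a was listed at 0 in all immature libraries and in mature library 1. The macrophage and monocyte markers (12 of 12) summed to 155, 558 and 465 FPKM in mature libraries, against 136, 181 and 165 FPKM in immature libraries, with overlap, and Marco was listed at 0 in all immature libraries. Of these 12, Cd14, the co-receptor for LPS, passed the test. Log2 fold changes on the list went down to -1.15, for Mrc1, with Csf1r at 0.10, neither past the test. The exosome markers (6 of 6) overlapped too, at 173, 477 and 405 FPKM in mature libraries, against 198, 302 and 96.3 FPKM in immature libraries. Platelet and megakaryocyte markers (6 of 9), whose cells use Ptgs1 and Tbxas1 to make thromboxane, summed to 27.5 to 64.4 FPKM in mature and 31.3 to 39.5 FPKM in immature libraries. Eosinophil markers (5 of 7) summed to 31.1 to 58.3 FPKM in mature and 15.0 to 36.3 FPKM in immature libraries. B, T and NK cell markers (8 of 11) summed to 9.48 to 19.2 FPKM in mature and 6.07 to 17.1 FPKM in immature libraries. Stromal and endothelial markers (6 of 9) summed to 19.0 to 31.7 FPKM in mature and 11.0 to 16.4 FPKM in immature libraries, also without overlap. The part of any of these cell types in the Ptgs2 and Ptges values was not tested.

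Ranked by mean level in FPKM, which is scaled to transcript length, the order in mature libraries was Alox5ap (107 ± 92.6), Ptges (29.4 ± 21.1), Ptgs2 (21.6 ± 7.94), Lta4h (18.1 ± 8.09), Ltc4s (14.4 ± 9.26), Ptgs1 (10.7 ± 2.83) and Alox5 (3.60 ± 3.23; SD, n = 3). Neighbours in that order overlapped in their ranges over libraries, except Ptgs1 and Alox5. In immature libraries the order was Alox5ap (73.8 ± 62.6), Lta4h (12.5 ± 5.02), Ptgs1 (6.80 ± 4.47), Ltc4s (5.80 ± 6.22), Alox5 (3.13 ± 2.74), Ptgs2 (1.25 ± 0.485) and Ptges last. Only Alox5ap and Lta4h did not overlap there. Alox5ap was the most abundant in both groups, and gave 35.5%, 65.7% and 38.5% of the summed FPKM of the 7 genes in mature libraries 1, 2 and 3, against 69.0%, 60.3% and 74.3% in immature libraries 1, 2 and 3.

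Likeness of pattern was measured as the root mean square difference between centred log2(FPKM + 1) values over the 6 libraries, where 0 means an identical pattern. Among the 21 pairs of members, Alox5 and Alox5ap (0.48) and Ptgs2 and Ptges (0.57) were the most alike, and Ptges and Alox5 (2.13) the least. Of all genes tested, Clec4e (0.27), Cd14 (0.32) and Socs3 (0.37) were nearest to Ptgs2. Clec4e, which encodes the C-type lectin receptor Mincle, had 15.8, 30.2 and 45.5 FPKM in mature libraries 1, 2 and 3, against 1.95, 0.993 and 1.25 FPKM in immature libraries 1, 2 and 3. Clec4e (0.46), Orm1 (0.49) and Slpi (0.54) were nearest to Ptges, with Slpi, which encodes a secreted protease inhibitor, at 16.8, 41.8 and 68.5 FPKM in mature libraries, against 2.20, 2.51 and 5.75 FPKM in immature libraries. Among the nearest to Alox5ap were Chp1 (0.11) and Igsf6 (0.12), nearest to Alox5 were Cryl1 (0.13), Rangrf and Eya3, and nearest to Ltc4s was Cebpe (0.10), followed by Inpp5b and Mob3a. For Lta4h they were Fkbp11, Mkrn1 and Psma4, and for Ptgs1 they were AI597479, AU022252 and Zfp747. All these patterns rest on the same 6 libraries and share their depth and composition.

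The wider pathway was examined through 93 further genes listed by role, of which 63 had a value and 55 were tested. None of the 55 passed the limma adjusted threshold. At an unadjusted p under 0.05, 6 of the 55 (10.9%) were higher and 0 were lower, near the 9.52% higher and 0.224% lower of all genes tested. Mature values lay above immature values without overlap for 8 of the 55 (14.5%), again near the 16.7% of all genes. They lay below without overlap for 1 of the 55, Daglb, and the share of all genes that did so was not computed. The median log2 fold change of the 55 was 0.39, and that of all genes was 0.38.

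**Figure D4:**
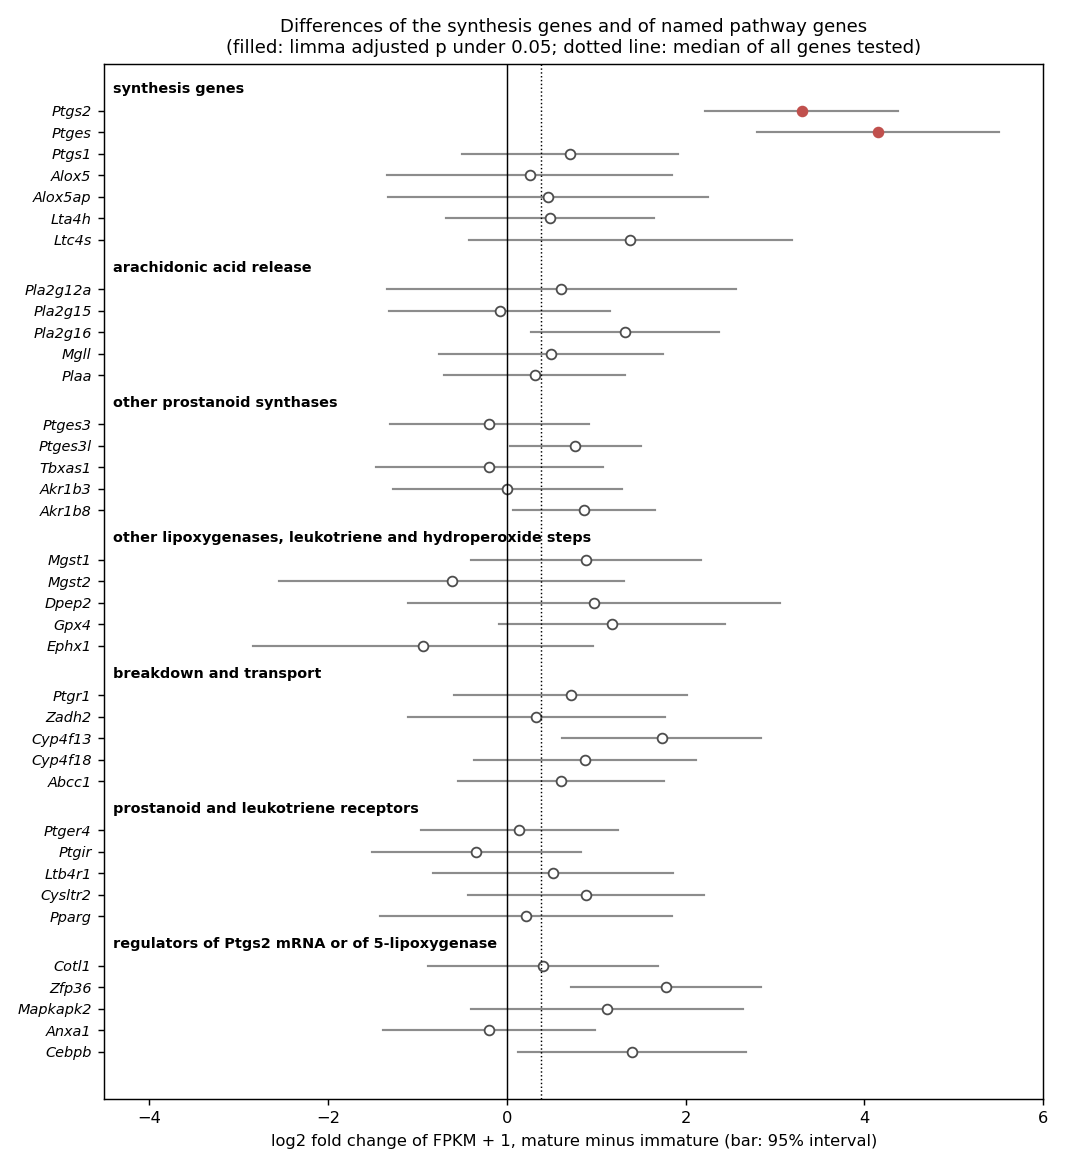
Log2 fold changes of FPKM + 1, mature minus immature, with 95% intervals, of the 7 synthesis genes and of 30 named pathway genes grouped by role; filled points have a limma adjusted p under 0.05 and the dotted line is the median of all genes tested (0.38). The filled points, Ptgs2 at 3.30 and Ptges at 4.15, lie to the right of every other gene shown.

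Under arachidonic acid release, 22 genes were listed, 11 had a value and 9 were tested, with a median log2 fold change of 0.50. Lpcat3 and Plaa, which are on that list and among those tested, do not encode lipases. Pla2g16, a phospholipase of adipose and other tissues, had 3.75, 6.14 and 3.84 FPKM in mature libraries, against 2.11, 0.569 and 1.15 FPKM in immature libraries (log2 fold change 1.32, SE 0.48, limma adjusted p = 0.405). Its groups did not overlap, and it was 1 of the 9 with an unadjusted p under 0.05. Pla2g4a, which encodes the cytosolic phospholipase A2 that feeds both branches, had 5.48, 2.74 and 2.68 FPKM in mature libraries, against 1.72, 4.21 and 2.79 FPKM in immature libraries, and was named for that role after its values were seen. Pla2g12a, Mgll, Plaa and Pla2g15, the most abundant others, had log2 fold changes between -0.08 and 0.61. Daglb, named after its values were seen, had 0.966, 2.60 and 1.07 FPKM in mature libraries, against 2.90, 3.34 and 4.96 FPKM in immature libraries. It was lower without overlap (log2 fold change -0.93, SE 0.47, limma adjusted p = 0.554).

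Other prostanoid synthases numbered 11, with 9 tested and a median log2 fold change of 0.01. The 2 with an unadjusted p under 0.05 were low in every library. Ptges3l had 1.16, 0.623 and 1.13 FPKM in mature libraries, against 0.101, 0 and 0.380 FPKM in immature libraries, and Akr1b8, an aldo-keto reductase, had 1.35, 1.40 and 0.672 FPKM in mature libraries, against 0.562, 0 and 0 FPKM in immature libraries. Tbxas1, the thromboxane synthase, averaged 8.13 ± 3.38 FPKM in mature and 10.4 ± 7.24 FPKM in immature libraries (SD, n = 3 each), and Akr1b3 8.71 ± 4.83 FPKM in mature and 8.36 ± 4.59 FPKM in immature libraries.

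Of 17 other lipoxygenases and enzymes of leukotriene and hydroperoxide steps, 8 were tested, 0 with an unadjusted p under 0.05, at a median of 0.54. Gpx4, a glutathione peroxidase that reduces lipid hydroperoxides, had 135, 164 and 201 FPKM in mature libraries, against 66.3, 129.7 and 43.9 FPKM in immature libraries, without overlap (log2 fold change 1.18, SE 0.57, limma adjusted p = 0.533). Mgst2, a microsomal glutathione transferase that can also make leukotriene C4, averaged 15.7 ± 15.6 FPKM in mature and 16.7 ± 10.2 FPKM in immature libraries (SD, n = 3 each). The related Mgst1 averaged 35.1 ± 19.0 FPKM in mature and 16.5 ± 4.70 FPKM in immature libraries. Dpep2, a dipeptidase that acts on leukotriene D4, averaged 20.9 ± 15.0 FPKM in mature and 11.4 ± 9.60 FPKM in immature libraries. Ephx1, an epoxide hydrolase, reached 29.6 FPKM in immature library 2 and stayed between 0.770 and 7.76 FPKM in the other 5 libraries.

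Breakdown and transport had 9 tested genes of 11 listed, at a median of 0.61. Cyp4f13, of the cytochrome P450 family whose members hydroxylate leukotriene B4, had 3.35, 4.90 and 5.62 FPKM in mature libraries, against 1.68, 0 and 0.715 FPKM in immature libraries (limma unadjusted p = 0.00574, adjusted p = 0.285). No immature library reached its mature range. Ptgr1, which reduces prostaglandins and leukotriene B4, averaged 12.2 ± 6.16 FPKM in mature and 6.92 ± 3.81 FPKM in immature libraries, Cyp4f18 11.1 ± 4.53 FPKM in mature and 5.89 ± 4.07 FPKM in immature libraries, and the leukotriene C4 exporter Abcc1 7.30 ± 2.86 FPKM in mature and 4.49 ± 2.06 FPKM in immature libraries (SD, n = 3 each). Zadh2, a prostaglandin reductase, averaged 6.65 ± 3.70 FPKM in mature and 5.74 ± 4.52 FPKM in immature libraries.

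Receptors were scarcer, with 7 of 16 in the table and 6 tested, 0 of them with an unadjusted p under 0.05, at a median of 0.37. The leukotriene B4 receptor Ltb4r1 had 3.50, 17.8 and 14.4 FPKM in mature libraries, against 6.35, 4.88 and 9.37 FPKM in immature libraries. Ptger4, a receptor for prostaglandin E2, averaged 3.81 ± 1.93 FPKM in mature and 3.09 ± 0.327 FPKM in immature libraries, and the prostacyclin receptor Ptgir 4.60 ± 2.55 FPKM in mature and 5.51 ± 0.969 FPKM in immature libraries (SD, n = 3 each). Pparg, a nuclear receptor that binds some prostanoids, averaged 11.4 ± 9.79 FPKM in mature and 8.27 ± 5.07 FPKM in immature libraries. Cysltr2 had 3.42, 2.62 and 4.73 FPKM in mature libraries, against 2.44, 3.22 and 0 FPKM in immature libraries.

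All 14 listed regulators of Ptgs2 mRNA or of 5-lipoxygenase were tested, at a median of 0.25. Their log2 fold changes were above 0 for 9 and below 0 for 5. The lowest was -0.95, for Zfp36l1 (limma adjusted p = 0.566), which was named after its values were seen. Zfp36 encodes tristetraprolin, which binds AU-rich elements of mRNAs including that of Ptgs2 and speeds their decay. It had 25.4, 44.3 and 41.5 FPKM in mature libraries, against 9.40, 7.25 and 13.6 FPKM in immature libraries, without overlap (log2 fold change 1.78, SE 0.48, limma unadjusted p = 0.00361, adjusted p = 0.242). Cebpb, a C/EBP factor, had 99.0, 128.0 and 239 FPKM in mature libraries, against 64.2, 74.6 and 33.1 FPKM in immature libraries (log2 fold change 1.40, SE 0.57, limma adjusted p = 0.461), also without overlap. Mapkapk2, a kinase that acts on tristetraprolin, averaged 161 ± 89.0 FPKM in mature and 71.3 ± 43.5 FPKM in immature libraries, with overlap (SD, n = 3 each). Cotl1, which encodes an actin-binding protein that also binds 5-lipoxygenase, averaged 101 ± 51.1 FPKM in mature and 68.3 ± 13.5 FPKM in immature libraries. Anxa1, which encodes a protein named as an inhibitor of phospholipase A2, averaged 87.6 ± 35.8 FPKM in mature and 95.2 ± 14.8 FPKM in immature libraries. Ptgs2os2, a non-coding gene named after Ptgs2, was too low to be tested, and no listed transcript of it overlaps the span of Ptgs2. Mature libraries 1, 2 and 3 had 0.465, 0 and 0.518 FPKM of it, and all immature libraries are listed at 0.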

How the data were processed

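RNA of 3 mature and 3 immature exosome libraries was analysed from 1 table in which the authors deposited an FPKM value per transcript and library, per the file headers. Per the labels' protocols, 1 µg of Trizol-extracted RNA entered an Illumina TruSeq preparation. Per the submitters' processing notes, StringTie, STAR 2.5.2b, HISAT2 2.0.5 and cutadapt were used, in roles and an order not given, with the human build hg19. Row identifiers are those of mouse Ensembl, however, and all 7 genes overlapped their RefSeq positions on the mouse build GRCm38, on which positions are read. Groups follow the sample titles, since a treatment label reads untreated in all 6 samples. Read totals are unknown because FPKM values are not counts, so no count model was used. Each of the 27544 listed transcripts reached at least 0.500024 FPKM in some library.

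FPKM was summed by gene identifier (Dpep2 has more than 1, and the most abundant was used). Genes or transcripts at 0.5 FPKM or more in at least 3 libraries were tested on log2(FPKM + 1) with limma 3.58.1 (R 4.3.3; linear model, then eBayes with its trend and robust settings on), without further scaling or replicate block, with Benjamini-Hochberg adjustment over all features tested and a threshold of 0.05. The pseudocount understates the change of low genes. Ratios of log2(FPKM + 1) and shares were computed per library in Python 3.11.15. The fit was tested on simulated data. Alternatives were other pseudocounts, filters and scalings, coding or most abundant transcripts alone, a replicate block, and each library left out in turn.

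The 7 genes and all lists were chosen with earlier results of these data known. Given are all 7 with their transcripts of at least 0.5 mean FPKM in a group, and named are, of each role list, genes past the test, then those with an unadjusted p under 0.05, then the most abundant, up to 5. For each of the 7 the 3 genes nearest in pattern are also named, except 1 that is not reported here. The protein sequences were not analysed here.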

Additional observations from a re-analysis of the deposited data

How the results depend on the processing

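Ptgs2 and Ptges kept a positive log2 fold change in all 19 alternative settings and passed the limma test in 12 of them. The call of both was lost, leaving 0 members past the test, with a pseudocount of 0.1 (Ptgs2 4.02, adjusted p = 0.0555; Ptges 5.95, 0.115), with each library rescaled to the same total (3.60, 0.0534; 5.36, 0.0721) and on the most abundant transcript alone (3.37, 0.0671; 3.81, 0.0697). With one library left out in turn, Ptgs2 ran between 3.03 and 3.52 and Ptges between 3.61 and 4.68, with 0 to 2 members past the test. The cause was not tested. The labels do not say whether replicate numbers pair the libraries. Deviations of same-numbered libraries from their group means correlated at -0.03, -0.45 and -0.13. With 3 libraries a group such deviations are tied to each other, so these values cannot decide it. In the fit with the replicate block, Ptgs2 was at 3.30 (adjusted p = 0.127) and Ptges at 4.15 (0.0560), 0 members, 5 genes and 0 transcripts passed, and no other member's call changed.

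The uncalled fold changes of 3 leukotriene genes and of Ptgs1-201 fell below 0 under some settings. Under median-of-ratios scaling, upper-quartile scaling and quantile normalization, Alox5 was at -0.034, -0.068 and -0.24, Alox5ap at -0.041, -0.070 and -0.0043, and Ptgs1-201 at -0.28, -0.34 and -0.37. Lta4h was at -0.025 and -0.000355 under the upper-quartile and quantile settings, and Ptgs1-201 at -0.22 after rescaling to the same total. Without both immature library 2 and mature library 1, Alox5 was at -0.10 and Ptgs1-201 at -0.040. With one library left out, Alox5 ran between -0.49 and 0.76, Alox5ap between -0.23 and 1.16 and Ptgs1-201 between -0.24 and 0.41, below 0 without mature library 2 and without immature library 2. Ltc4s (0.62 to 2.13) and Ptgs1 (0.11 to 1.14) stayed positive and uncalled. The median fold change of all genes, 0.38 as deposited, was 0.02, 0.00 and -0.04 under the same 3 scalings and 0.19 after rescaling to the same total.

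Of all genes 19 passed the test, against 9 with a pseudocount of 0.1, 12 under median-of-ratios scaling, 6 after rescaling to the same total, 10 on the most abundant transcripts, 61 without both libraries and 0 to 27 with one left out. Of all transcripts 12 passed, against 6 under each of the 4 scalings, 0 without both libraries and 0 to 4 with one left out. No wider pathway gene and no member transcript passed in any setting (6 genes and 5 transcripts at an unadjusted p under 0.05 as deposited). Read depth is unknown, and with 3 libraries a group the 95% intervals of the 4 leukotriene genes all hold 0 and reach up to log2 fold changes between 1.65 and 3.19.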
